A study of Caenorhabditis elegans with 8 samples.

Results

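Small RNAs against 4 cuticle, chitin and cell junction genes were examined. These were the chitin synthase gene chs-2 (F48A11.1), the cuticlin-like gene cutl-10 (Y53H1B.1), the collagen gene col-111 (F29B9.9) and clc-7 (C24H10.1), whose product is claudin-like. They are 4 of 1937 genes in the deposited table of small RNA counts. They were picked by name, with their difference between genotypes already known, so their values in that comparison are described and not tested. What ties them together is what their products are known to do, and the counts hold no measure of that.

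Mutants with the genotype rde-12(hj41) are altered in the gene for RDE-12, an RNA helicase of the DEAD-box family with a role in RNA interference. They were set against N2, the standard wild-type strain of Caenorhabditis elegans. Both were whole young adults grown for 50 h at 20 °C on OP50, the usual laboratory food, with no RNAi trigger eaten. Each genotype was sequenced in 2 libraries, each from about 50000 pooled worms and described in the labels as a separate biological sample. The mutant is represented by a single allele. RNA of 20 to 26 nt was gel-purified, and TAP treatment made RNAs with a triphosphate end available for ligation. The series also holds animals of both genotypes fed a sel-1 trigger, for which counts of these genes were not analysed here.

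The nematode cuticle is an extracellular coat secreted by the epidermis. Its bulk is made of collagens, and cuticlins form insoluble layers and ridges within it. Chitin is found in the lining of the pharynx and in the eggshell. Claudins are membrane proteins that link neighbouring cells in epithelia. Worms hold many small RNAs antisense to their own messenger RNAs. RNA-dependent RNA polymerases make them on a transcript, and Argonaute proteins use them to guide silencing. A count here is a number of small RNAs assigned to a gene, and it is not a measure of that gene's messenger RNA.

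The counts over all genes of the table summed to 5563151 and 4354715 in the rde-12 libraries and to 4270098 and 4382256 in the N2 libraries. The table does not cover every gene of the worm, so these totals are not whole-library depths. With edgeR's quasi-likelihood test and Benjamini-Hochberg adjustment, 535 of the 1931 genes tested were called, a share of 27.7%. Of these, 268 fell (13.9%) and 267 rose (13.8%) in rde-12. The balance of directions moved with the scaling: 333 genes rose and 221 fell when library totals replaced the TMM factors, and 370 rose and 202 fell under upper-quartile scaling. Because whole animals were sequenced, fewer cells holding a small RNA and fewer small RNAs per cell cannot be told apart. Counts against rde-12 itself were not analysed here, so they do not check the mutation.

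The 4 genes split by direction. Against chs-2 and cutl-10, a chitin synthase and a cuticlin-like protein, small RNAs were 6.69-fold and 12.9-fold lower in rde-12. Against col-111 and clc-7, a collagen and a claudin-like protein, they were 2.30-fold and 1.97-fold higher. For none of the 4 genes did a mutant library overlap a wild-type library. This was so for 64.2% of all genes tested, and the genes were picked on this comparison, so nothing is read from it.

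chs-2 encodes a chitin synthase, known for making the chitin of the pharyngeal lining. It had 216 and 163 counts in the rde-12 libraries and 1072 and 1106 counts in the N2 libraries. On the CPM scale, which sets counts relative to the library's sum over the tested genes, this was 39.2 and 36.4 CPM in rde-12, against 254.5 and 253.4 CPM in N2. Both mutant libraries thus lay far below both wild-type libraries, and replicates of either genotype lay close together. The means were 37.8 ± 1.98 CPM in rde-12 and 254.0 ± 0.726 CPM in N2 (SD, n = 2 each). The log2 change was −2.74 ± 0.0787 (SE), and 22 of the 1931 genes had a lower fitted change.

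cutl-10 encodes a protein of the cuticlin-like family. It had 172 and 119 counts in the rde-12 libraries and 1588 and 1623 counts in the N2 libraries. These were 31.2 and 26.6 CPM in rde-12, against 377 and 372 CPM in N2. Again both mutant libraries were low and both wild-type libraries high. The means were 28.9 ± 3.28 CPM in rde-12 and 374 ± 3.57 CPM in N2 (SD, n = 2 each). The log2 change was −3.68 ± 0.0814 (SE), and 8 genes of the table had a lower fitted change. The mutant libraries were 0.229 apart on the log2 scale and the N2 libraries 0.0194 apart.

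col-111 encodes a collagen. It had 3906 and 2874 counts in the rde-12 libraries and 1234 and 1284 counts in the N2 libraries. These were 709 and 642 CPM in rde-12, against 293 and 294 CPM in N2. The mutant libraries were the high ones here, and they were also farther apart than the wild-type pair. The means were 676 ± 47.4 CPM in rde-12 and 294 ± 0.924 CPM in N2 (SD, n = 2 each). The log2 change was 1.20 ± 0.0646 (SE), and 3 genes had a higher fitted change.

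clc-7 encodes a claudin-like protein, and it was the gene with the fewest counts of the 4 in every library. It had 143 and 101 counts in the rde-12 libraries and 45 and 61 counts in the N2 libraries. The exact Poisson 95% intervals were 120.5 to 168 and 82.3 to 122.7 counts in rde-12, against 32.8 to 60.2 and 46.7 to 78.4 counts in N2. Without molecular identifiers reads can be copies of the same molecule, so the intervals hold counting error and nothing else. They are on unscaled counts from libraries of unequal totals and show only how coarse the value of each library is. Scaled, the gene had 26.0 and 22.6 CPM in rde-12, against 10.7 and 13.98 CPM in N2. The means were 24.3 ± 2.40 CPM in rde-12 and 12.3 ± 2.33 CPM in N2 (SD, n = 2 each). The log2 change was 0.98 ± 0.173 (SE), the widest error of the 4, and 7 genes had a higher fitted change.

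**Figure D1:**
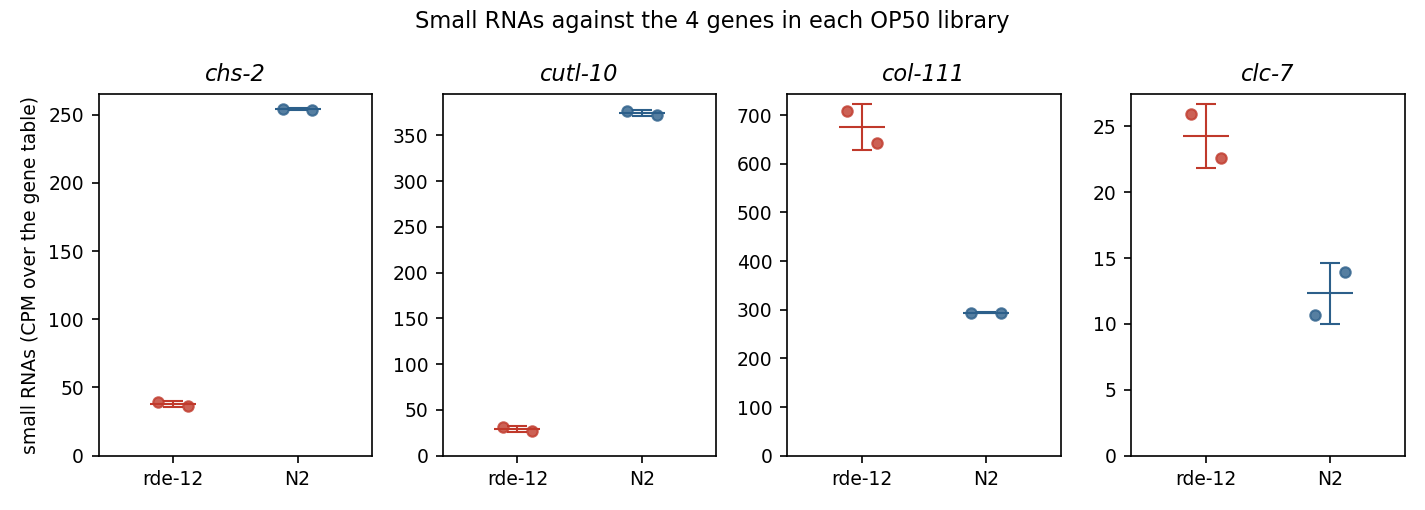
Level of small RNAs against each gene, in CPM over the tested genes, in the 2 rde-12 libraries (left, red) and the 2 N2 libraries (right, blue). Points are libraries, and bars are the mean and SD. For chs-2 and cutl-10 the mutant libraries lie between 26.6 and 39.2 CPM, below all N2 libraries, and for col-111 and clc-7 the mutant libraries lie above them.

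In the plot of change against level, chs-2 and cutl-10 lie among the scattered genes far below 0, while col-111 and clc-7 lie at the upper edge of the cloud. Large changes were uncommon in either direction. A fitted change past 2-fold, which is a log2 change past 1 in either direction, was found in 71 of the 1931 genes, or 3.68%. chs-2, cutl-10 and col-111 were among them, and clc-7 was just inside.

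**Figure D2:**
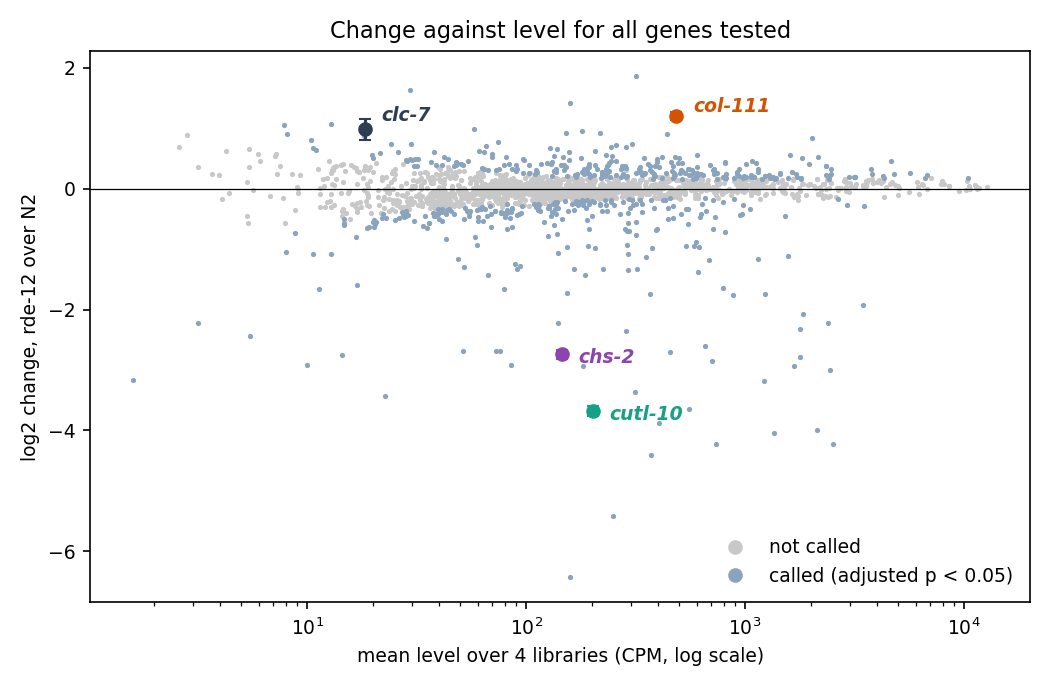
Log2 change of rde-12 over N2 (y axis) against the mean level over the 4 libraries in CPM (x axis, log scale) for the 1931 genes tested. Blue points are genes called at an adjusted p under 0.05 and grey points are not called, with the 4 genes in larger colored points and their SE as bars. cutl-10 at −3.68 and chs-2 at −2.74 lie far below 0, and col-111 at 1.20 and clc-7 at 0.98 lie above it.

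The 4 genes differ in length, so their levels were set side by side per kilobase of coding sequence. In the WBcel235 annotation the longest coding sequence of chs-2 has 5100 nt, in a transcript of 19 exons. cutl-10 has 1209 nt and 8 exons, col-111 has 996 nt and 3 exons, and clc-7 has 798 nt and 6 exons. chs-2 lies on chromosome II, cutl-10 on I, col-111 on IV and clc-7 on X.

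Per coding kilobase, the order of the 4 genes differed between the genotypes. In rde-12 the order was col-111 at 678 ± 47.6, clc-7 at 30.4 ± 3.01, cutl-10 at 23.9 ± 2.71 and chs-2 at 7.41 ± 0.388 CPM per coding kilobase (SD, n = 2). In N2 it was cutl-10 at 309.7 ± 2.95, col-111 at 295 ± 0.928, chs-2 at 49.8 ± 0.142 and clc-7 at 15.5 ± 2.92 CPM per coding kilobase. col-111 thus stood apart from the other three in the mutant, and shared the top with cutl-10 in wild type. clc-7 lay above cutl-10 in both mutant libraries, at 32.5 and 28.3 against 25.8 and 21.99 CPM per coding kilobase, a gap little wider than their SDs added together. cutl-10 lay above col-111 in both N2 libraries, at 312 and 307.6 against 294 and 295 CPM per coding kilobase. The other neighbours in either order were farther apart than their spread. The region counted for each gene is not stated, and the annotated exons hold 1425 bases for col-111 and 1017 for clc-7. Before division by length, cutl-10 lay above clc-7 in rde-12, at means of 28.9 and 24.3 CPM. The order of close genes thus depends on the length used.

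Set among the 1803 tested genes with a coding length, col-111 was above 85.9% of genes per coding kilobase in rde-12 and above 73.7% in N2. cutl-10 was above 9.87% of genes in rde-12 and above 74.8% in N2. chs-2 was above 1.05% in rde-12 and above 23.0% in N2, and clc-7 was above 13.3% in rde-12 and above 4.49% in N2. The median gene had 106 CPM per coding kilobase in rde-12 and 111.4 in N2. In wild type, then, cutl-10 and col-111 lay above the median gene and just below the upper quartile of 313 CPM per coding kilobase. chs-2 and clc-7 lay below the lower quartile of 54.1.

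**Figure D3:**
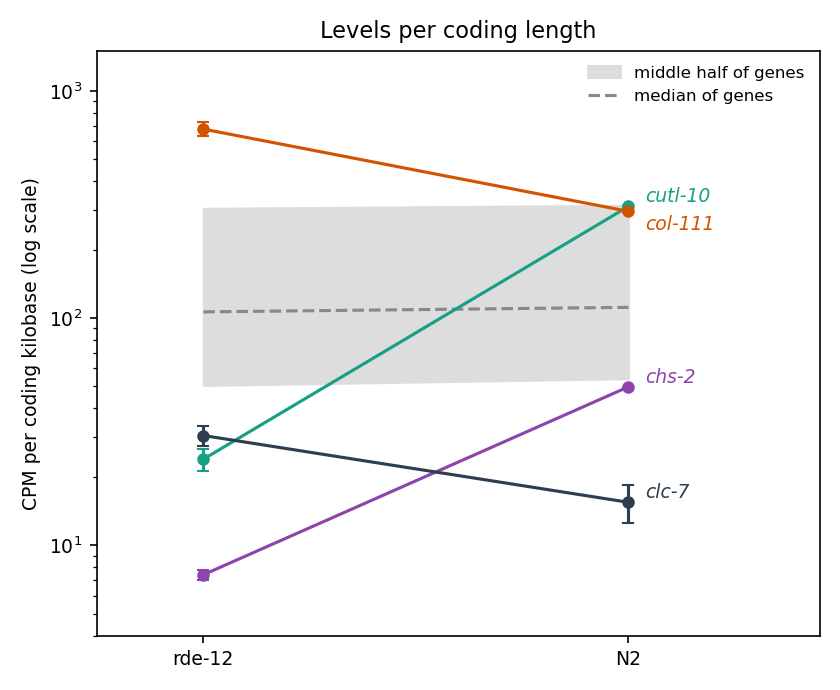
Mean level per coding kilobase in rde-12 (left) and N2 (right), on a log scale, with bars for the SD of 2 libraries. The grey band is the range between the lower and upper quartiles of the 1803 tested genes with a coding length, and the dashed line is their median. cutl-10 has 23.9 CPM per coding kilobase in rde-12 and 309.7 in N2. It lies below the band in rde-12 and near its top in N2. col-111 lies above the band in rde-12 and near its top in N2. clc-7 lies below the band in both genotypes and is higher in rde-12.

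Ratios of 2 genes within a library do not depend on how libraries are scaled. The genes were picked with their differences known, so these ratios restate the changes above and test nothing. There were 22.7 and 24.2 col-111 counts per cutl-10 count in the rde-12 libraries, against 0.777 and 0.791 in the N2 libraries, a 29.9-fold difference of the means. The genes that were lower in the mutant also differed from each other. There were 0.796 and 0.730 cutl-10 counts per chs-2 count in rde-12, against 1.48 and 1.47 in N2, so that cutl-10 was lower by 1.93-fold more than chs-2. For the genes that were higher, there were 27.3 and 28.5 col-111 counts per clc-7 count in rde-12, against 27.4 and 21.0 in N2. That ratio overlapped between the genotypes, so the shifts of col-111 and clc-7 were not separated at this depth.

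Small RNAs against 2 other collagen genes rose slightly. Of 181 genes that the collagen names cover in RefSeq, only these 2 besides col-111 are in the table. Both passed the test, where 13.8% of all genes tested rose in rde-12. With 2 genes, nothing is read for collagens as a family. Small RNAs against col-71 (Y49F6B.10) were at 1299 and 1194 CPM in rde-12, against 1018 and 1049 CPM in N2 (log2 change 0.27 ± 0.0591 (SE), edgeR adjusted p = 0.00274). Those against col-157 (T11F9.9) were at 415 and 409 CPM in rde-12, against 357 and 359 CPM in N2 (log2 change 0.20 ± 0.0578, edgeR adjusted p = 0.0152). Their rises were far smaller than the difference at col-111, but col-111 was picked with that difference known, so this gap tests nothing. The call for col-157 ended without rde-12 replicate 1 (edgeR adjusted p = 0.0721), leaving 1 of the 2. Collagen genes resemble each other, and it is not known here how reads matching several of them were counted, so separate values are uncertain.

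No other cuticlin or zona pellucida gene by name was among the rows used, of 40 such names in RefSeq, so cutl-10 has no relative to be set beside. The same holds for the abu genes of the pharyngeal cuticle. Of 59 chitin genes by name, 1 besides chs-2 was tested. It was gfat-2 (F22B3.4), which makes glucosamine phosphate, a precursor of chitin and of other sugars. Small RNAs against it were at 382 and 393 CPM in rde-12, against 341 and 355 CPM in N2. Both mutant libraries lay above both wild-type libraries, but libraries of the genotypes did not overlap for 64.2% of all genes tested. With a log2 change of 0.15 ± 0.0591 (SE) and an edgeR adjusted p of 0.0660 it did not pass the test. It passed with library totals (0.18, edgeR adjusted p = 0.0375) and with upper-quartile factors (0.20, edgeR adjusted p = 0.0161). Its unadjusted p was under 0.05, as for 39.6% of all genes tested. DESeq2, which called 18.8% of all genes, did not call it (0 of 1).

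Among claudins and other junction genes, 3 besides clc-7 were tested and 0 were called by edgeR or by DESeq2, with 1 at an unadjusted p under 0.05. Over the whole table edgeR called 27.7% of genes and DESeq2 18.8%, and 39.6% had an unadjusted p under 0.05. The claudin-like gene nsy-4 (Y38F2AL.1) was at 356 and 338 CPM in rde-12, against 313 and 313 CPM in N2 (log2 change 0.15 ± 0.0597 (SE), edgeR adjusted p = 0.0772). It passed with library totals (0.17, edgeR adjusted p = 0.0343) and with upper-quartile factors (0.20, edgeR adjusted p = 0.0183). The claudin-like gene clc-10 (F40H6.1) was at 41.6 and 46.7 CPM in rde-12, against 57.4 and 46.7 CPM in N2, which gave an edgeR adjusted p of 0.154 at a log2 change of −0.24 ± 0.122. It was called without N2 replicate 2 (−0.38, edgeR adjusted p = 0.0384), and was −0.08 without N2 replicate 1 (adjusted p = 0.773). hmp-1 (R13H4.4), the alpha-catenin of adherens junctions, had a log2 change of −0.05 ± 0.0685 (edgeR adjusted p = 0.665), which turned to 0.01 with upper-quartile factors.

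Of 7 tested genes that process the cuticle or act in molting, 1 fell, 1 rose and 5 did not pass, shares near those of the whole table (13.9% and 13.8%). Their log2 changes had a median of 0.01, against −0.02 over all genes tested. dpy-31 (R151.5), a protease that trims collagen precursors, rose to 1278 and 1279 CPM in rde-12, against 999 and 918 CPM in N2 (log2 change 0.42 ± 0.0585 (SE), edgeR adjusted p = 5.00e-05). nas-36 (C26C6.3), a protease needed for molting, fell to 384 and 391.8 CPM in rde-12, against 569 and 522 CPM in N2 (log2 change −0.49 ± 0.0619, edgeR adjusted p = 1.49e-05). The log2 changes of the 5 others lay between −0.11 and 0.16, and they did not pass the test. The collagen, chitin, junction and processing lists hold 13 such genes in all, too few to say more.

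**Figure D4:**
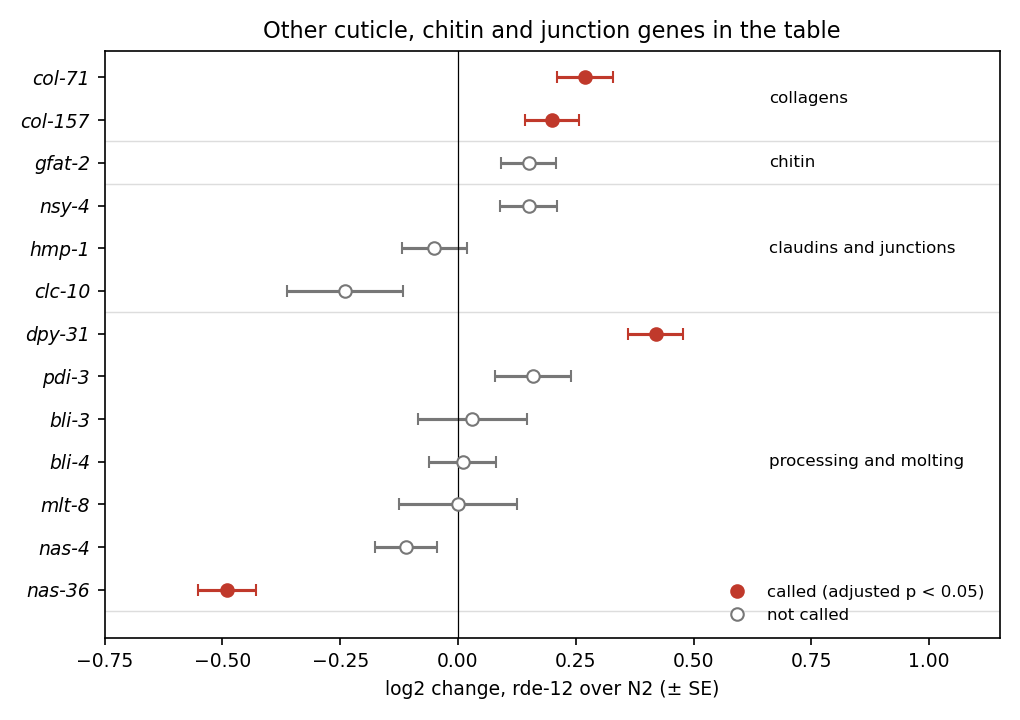
Log2 change of rde-12 over N2 with its SE for the other tested genes of the collagen, chitin, junction and cuticle-processing lists. Filled red points were called at an edgeR adjusted p under 0.05 and open points were not. The changes lie between −0.49 for nas-36 and 0.42 for dpy-31. Those of chs-2 and cutl-10 were far larger, but these genes were picked with their differences known.

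Genes next to the 4 were looked at in the same fit. In the annotation, 5 coding genes on either side of each gene were looked up, 40 in all, and 4 of these were in the table. None of those near chs-2 was among the rows used. Near cutl-10 was F36D1.9, with a log2 change of 0.13 ± 0.0654 (SE, edgeR adjusted p = 0.155). It was called without rde-12 replicate 2 (0.19, edgeR adjusted p = 0.0326) and with upper-quartile factors (0.18, edgeR adjusted p = 0.0495), and leaving out libraries gave 0.07 to 0.19. The other was clpr-3 (H25P06.4), with −0.04 ± 0.0586 (edgeR adjusted p = 0.681). Near col-111, F29B9.12 was at 110.7 and 115 CPM in rde-12, against 106 and 83.6 CPM in N2 (log2 change 0.25 ± 0.100, edgeR adjusted p = 0.0755). It was 0.44 and called without N2 replicate 1 (edgeR adjusted p = 0.0110), 0.09 without N2 replicate 2, and called with DESeq2's size factors in edgeR (0.26, adjusted p = 0.0478). Near clc-7, C24H10.4 rose to 1119 and 987 CPM in rde-12, against 906 and 921 CPM in N2 (log2 change 0.21 ± 0.0637, edgeR adjusted p = 0.0246). This call ended without N2 replicate 1 (edgeR adjusted p = 0.0785) or rde-12 replicate 1 (0.12, edgeR adjusted p = 0.263). No other flanking gene was called in the main fit, where 27.7% of all genes tested were called.

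Some exons of col-111 and clc-7 lie opposite another gene. The annotated exons of col-111 share 60 bases, 4.21% of their length, with psr-1 on the opposite strand. Those of clc-7 share 49 bases, 4.82% of their length, with cal-5 on the opposite strand. Which strand was counted is not stated in the labels or headers, so small RNAs from these stretches could come from either gene. chs-2 overlaps 3 annotated noncoding RNAs. They are F48A11.10 on its own strand and F48A11.8 and F48A11.9 on the opposite one, and they are not among the rows used. cutl-10 overlaps no other annotated gene.

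The genes whose pattern over the 4 libraries was most like each of the 4 were found among 1894 genes with a mean of at least 10 CPM. Likeness was the distance between log2 CPM values centred per gene, so it compares the shape and not the level. Nearest to chs-2 were ZK402.2 at a distance of 0.0879, gsto-3 (K10F12.4), which encodes an omega-class glutathione transferase, at 0.0907, and W04B5.1 at 0.109. Nearest to cutl-10 were F55C9.3 at 0.183, the F-box gene fbxa-52 (F07G6.6) at 0.210 and Y17D7B.4 at 0.338. The nearest genes of cutl-10 were thus farther off than those of chs-2.

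Nearest to col-111 were C11D2.3 at 0.224, the Iroquois-type homeobox gene irx-1 (C36F7.1) at 0.252 and Y71F9B.13 at 0.259. Nearest to clc-7 were ces-2 (ZK909.4), a bZIP transcription factor, at 0.164, Y54G2A.19 at 0.179 and F13C5.1 at 0.248. ces-2 was also at a like level, with 23.96 and 22.8 CPM in rde-12, against 11.6 and 13.98 CPM in N2. The 4 libraries are 2 pairs, so likeness here is mostly likeness of the difference between genotypes.

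Genes named for sperm, yolk or eggshell were counted as well. Their values are small RNAs against genes, so they do not show the stage of the animals. Several share a family name, and how reads matching several genes were counted is not known here. Among 27 sperm genes by name, 7 fell in rde-12, 0 rose and 20 did not pass the test, where 13.9% of all genes tested fell. Their median log2 change was −0.25, against −0.02 over all genes. At an unadjusted p under 0.05 there were 11 falls and 0 rises. The share of the whole table, 39.6%, counts both directions, so it is not a like measure. The largest falls were in spe-41 (K01A11.4; −1.34), a sperm channel, nspd-5 (F11G11.8; −0.65) and nspd-4 (T23B7.1; −0.43). The number was 3 without N2 replicate 1, 4 without rde-12 replicate 1 and 3 with DESeq2, which called 8.11% of all genes as falls. nspd-5 did not pass with DESeq2 (adjusted p = 0.112), nor when N2 replicate 2 (edgeR adjusted p = 0.0518) or rde-12 replicate 1 (0.0714) was left out. Of 2 yolk and eggshell genes, 0 were called by edgeR or DESeq2 and 0 had an unadjusted p under 0.05. Any part of these sperm values in the differences of the 4 genes was not tested.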

How the data were processed

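Small RNA libraries of whole worms were counted per gene by the authors. These deposited counts are whole numbers, not normalized, and cover the 4 OP50 libraries. The submitters' processing notes name TopHat 1.4.1 along with SAMtools and bedtools. The genome build, the annotation, the strand and the treatment of reads with several matches are not stated in the labels or headers, and each could shift counts between similar or overlapping genes. Of 1959 rows, 22 repeat another row with identical values and were counted once. Symbols came from a RefSeq table of WBcel235 (1900 of 1937 genes matched), coding lengths, exons and neighbours from the Ensembl annotation of that assembly (1809 genes with a coding length).

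Genes were fitted by the quasi-likelihood method of edgeR 4.0.16 (R 4.3.3) with TMM factors. filterByExpr took out 6 genes, and p-values of the other 1931 were adjusted by Benjamini-Hochberg and called below 0.05. Levels are CPM scaled with TMM factors. SE is the size of the log2 change over the root of its F statistic. Log2 CPM for likeness used a prior count of 2. The fit was tested on simulated data. Replicates were not repeats of a library: chi-square over its degrees of freedom was 4.13 between the rde-12 libraries and 3.50 between the N2 libraries.

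Groups came from the sample labels. The 4 genes and the lists, which are name rules from general knowledge, were chosen with earlier results of these data known. Genes named are the 4, the called genes of each list (the 3 most changed where over 5), the most abundant uncalled gene of a list, genes of the same clone and the 3 nearest patterns. The flanking genes, and clc-10 and hmp-1, were added after their values were seen. Alternatives were other scaling factors, no filter, DESeq2 1.42.0, a replicate block, repeated rows kept and each library left out. The sel-1 counts were not used.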

Additional observations from a re-analysis of the deposited data

How the results depend on the processing

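The log2 changes kept their direction in all 11 alternatives run on each of the 4 genes, from −2.79 to −2.69 for chs-2, −3.81 to −3.58 for cutl-10, 1.14 to 1.27 for col-111 and 0.81 to 1.19 for clc-7. These ranges are also those with a library left out. The 4 genes were picked with this comparison in the same libraries known, so the kept directions do not test their differences. With library totals, levels in N2 were 49.4 CPM per coding kilobase for chs-2 and 292 for col-111. With a library left out, 175 to 304 genes of the table fell and 165 to 308 rose, the lowest of both without rde-12 replicate 1. DESeq2 called 157 falls and 207 rises.

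Leaving out a library, rises among other collagens ranged from 1 to 2, falls among junction genes from 0 to 1, rises among processing genes from 1 to 2, rises among clone neighbours from 0 to 1 and falls among sperm genes from 3 to 8. With library totals or upper-quartile factors 1 chitin and 1 junction gene rose, and with DESeq2's size factors 2 clone neighbours rose. DESeq2 called 3 sperm genes. The change of clpr-3 turned to 0.01 with upper-quartile factors and lay between −0.08 and 0.02 when libraries were left out in turn, and that of hmp-1 to 0.01 with upper-quartile factors. The cause of these shifts was not tested.

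The same replicate number was not shown to pair libraries: replicate differences of the genotypes correlated at 0.0237. A fit with the number as a replicate block called 230 falls and 243 rises and gave log2 changes of −2.74, −3.69, 1.20 and 0.98 for the 4 genes, in the order above, and it ended or added no call of a named gene. Each group has 2 libraries, and clc-7 rests on 45 to 143 counts.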
